A study of Mus musculus with 3 samples.

Results

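Germ cell, meiosis and piRNA pathway genes were examined in F9 cells, a mouse embryonal carcinoma line derived from a teratocarcinoma. The set was chosen by gene symbol, not by signal: 55 genes were listed, and every probe set whose platform annotation gave 1 of these symbols alone was taken. Of the 55 genes, 51 had a probe set, and the 51 genes were read by 63 of the 45101 probe sets on the array. Nanos2, Nanos3, Tdrd6 and Brdt2 had none, so no signal was analysed for them. Brdt2 matched no symbol or synonym in the platform annotation, so whether the array reads such a gene is not known. The study holds 3 replicate samples of undifferentiated F9 cells, each on an Affymetrix Mouse Genome 430 2.0 array, and they form 1 group. The cells were kept on plastic coated with 0.2% gelatin, in medium containing 10% fetal calf serum, and were harvested at about 80% confluence. No treatment, differentiated cells, germ cells or testis belong to the design, so the question asked was which of these genes an embryonal carcinoma line expressed above background. F9 is a single long-passaged line, and the labels do not say whether the replicates were separate cultures, so the spread between replicates may be technical, and the p-values speak of that spread alone.

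Germ cells are set apart in the early embryo. Transcription factors such as Prdm1 and Prdm14 specify primordial germ cells, and RNA-binding proteins such as Dazl, Dnd1 and Ddx4 then guard their fate. In the male germ line, PIWI proteins loaded with piRNAs, short RNAs made in cytoplasmic granules called nuage, silence transposons with the help of Tudor-domain proteins. At meiosis, Stra8 marks entry, cohesins such as Rec8 and Stag3 hold sister chromatids, the synaptonemal complex joins homologous chromosomes, and Spo11 and Dmc1 make and repair the breaks that become crossovers. Many of these genes are silenced in somatic cells by DNA methylation at their promoters and by polycomb-type repressors. Embryonal carcinoma cells, by contrast, share much of their expression with the early embryo and with primordial germ cells.

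Values are linear signal intensities as deposited. A gene was called above background where log2 signal minus log2 threshold exceeded 0 in limma's moderated test (one-sided, Benjamini-Hochberg adjusted over all probe sets, adjusted p under 0.05). The threshold was each array's 95th percentile of 129 probe sets for families of narrow expression: receptors for odorants, pheromones and tastes, and proteins of hair keratin. The thresholds were 44.4, 46.0 and 43.1 on replicates 1, 2 and 3. Where several probe sets read a gene, the brightest by mean stood for it. Signals of different probe sets depend on the probes, so each gene is set against the threshold and not against another gene. A gene that was not called is not shown to be absent.

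Of the 51 measured genes, 19 were above background (37.3%), beside 51.1% of 18078 named genes outside the background families. No test of that difference was made. With the median over a gene's probe sets instead of the brightest, the 19 calls stood, beside 43.7% of all named genes. The median log2 signal over the threshold was -0.09 for the 51 genes and 0.72 for all named genes. The groups were unlike in these counts. Primordial germ cell and RNA-binding genes were above background in 5 of 6 cases (83.3%), with a median of 1.36. The piRNA pathway genes passed in 7 of 18 cases (38.9%, median 0.19), meiosis genes in 4 of 18 (22.2%, median -1.16) and gamete genes in 3 of 9 (33.3%, median -0.63). At an unadjusted limma p under 0.05 the count over all groups was 20, the added gene being Asz1, beside 52.8% of all named genes. With no test, 22 of the 51 genes exceeded the threshold on all 3 arrays, beside 53.8% of all named genes.

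**Figure D1:**
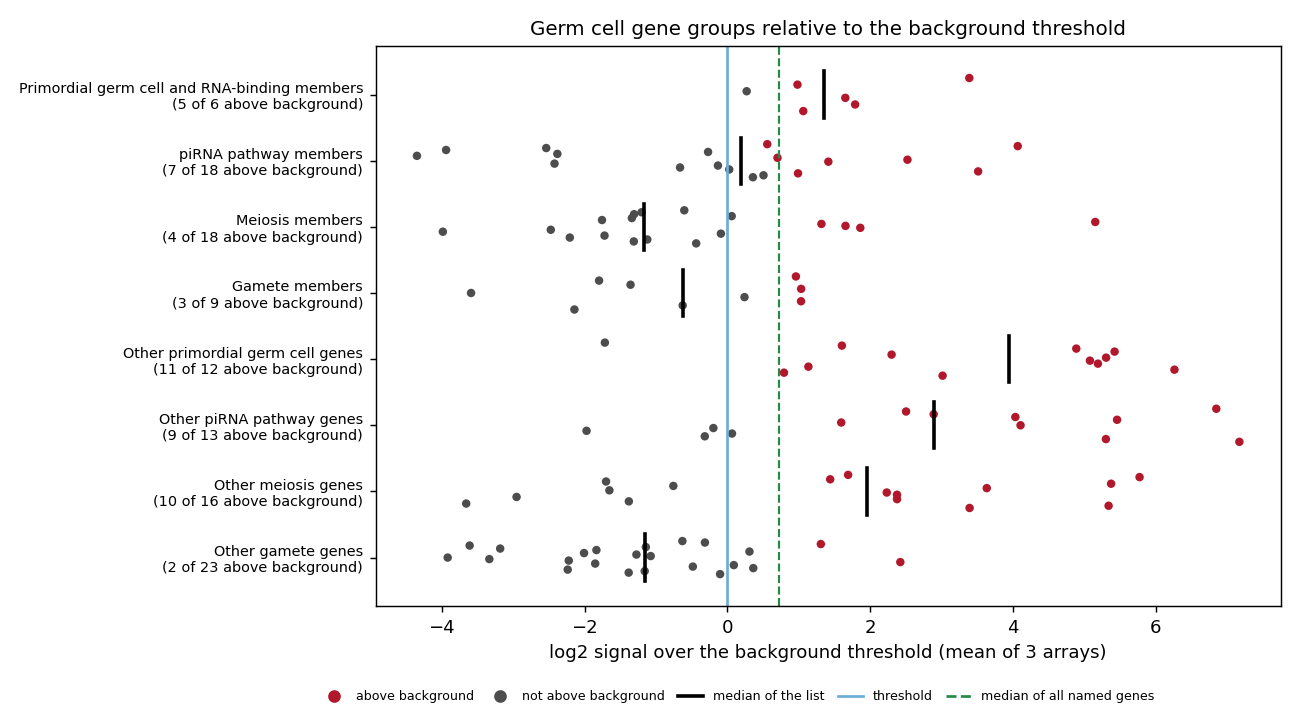
log2 signal over the background threshold (mean of 3 arrays) for each measured gene of the 4 groups of members and, below them, of 4 lists of other genes of the same pathways. Red points passed limma's test, grey points did not, black bars are list medians, the solid line is the threshold and the dashed line the median of all named genes at 0.72. The 6 primordial germ cell and RNA-binding members lie to the right of the threshold, and most meiosis and gamete members lie to its left.

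Most of the called genes stood only moderately over the threshold. Of the 19, 5 lay within 1 log2 unit of it, 9 between 1 and 2 units, and 5 more than 2 units above. Of the 9239 called among all named genes, 8554 lay more than 1 unit and 6931 more than 2 units above. The called members with more than 2 units were thus a smaller share. Those 5 members were Syce2, Tex19.1, Mov10, Prdm14 and Rnf17. In 16 of the 19 genes the signal exceeded each of the 129 background probe sets on every array. Stk31, Tex19.2 and Zp3 were the exceptions. The threshold came from these same probe sets, so this count is no separate support for the calls. It was not made for all named genes. The coefficient of variation between arrays had a median of 11.2% over the 19 called genes and 8.47% over all called genes.

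**Figure D2:**
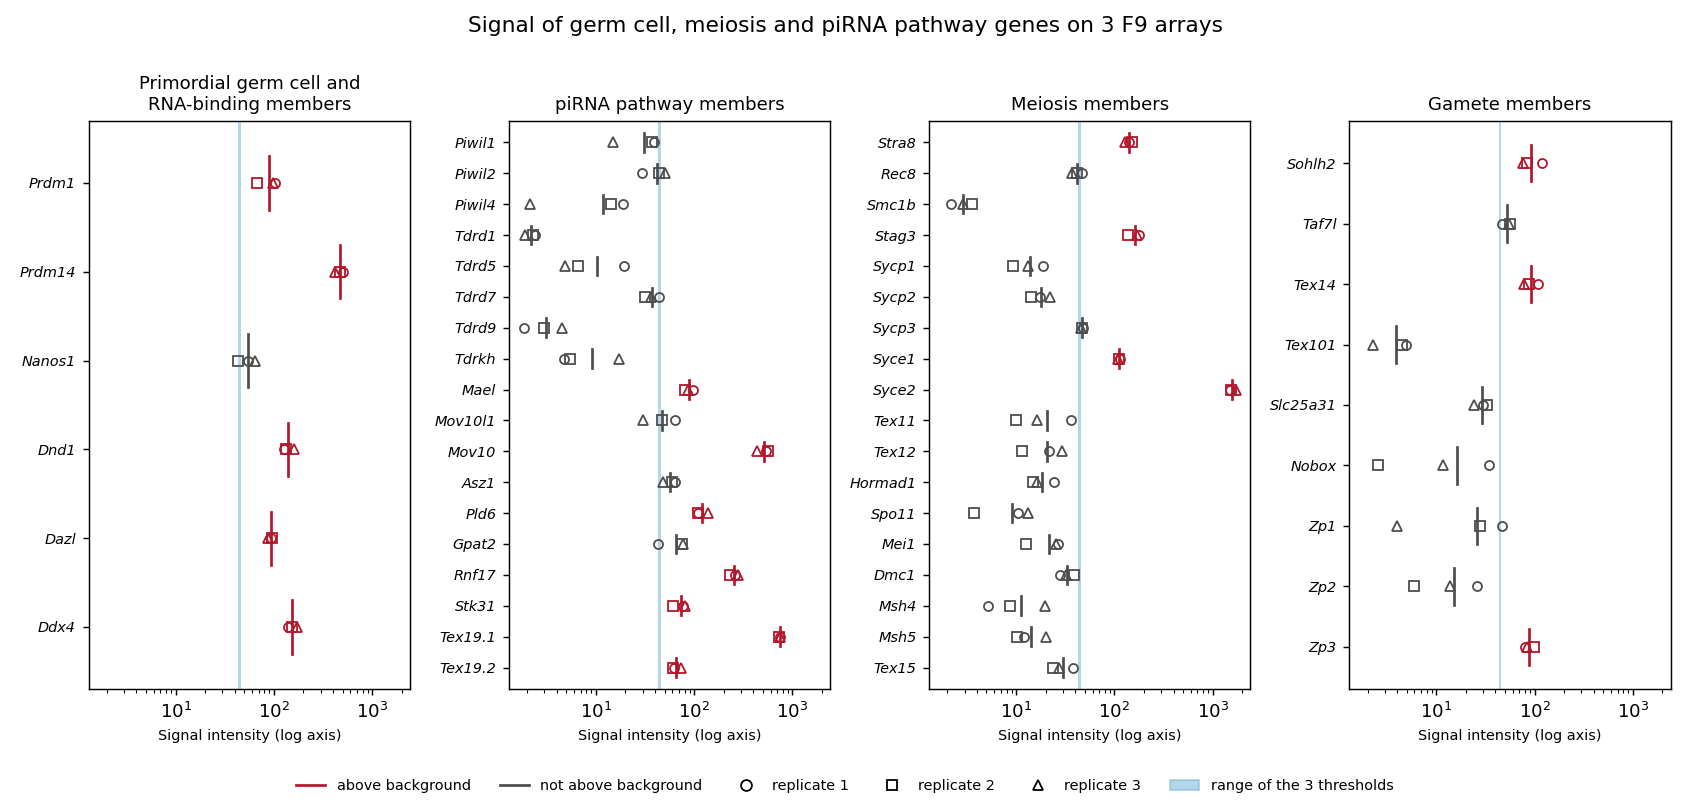
Signal intensity on a log axis for the 51 measured genes, in 4 panels by group. Symbols are the 3 replicates, vertical bars their mean, red marks genes above background, and the blue band spans the 3 array thresholds (43.1 to 46.0). Syce2 lies near 1583, Tex19.1 near 745, and Tdrd1 near 2.2.

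The factors that specify primordial germ cells were both above background. Prdm14, a PR-domain protein that maintains pluripotency and starts the germ cell programme, had signals of 502, 476 and 422 on replicates 1, 2 and 3. Its mean of 467 ± 40.7 (SD, n = 3, as for all means below) lay 3.39 ± 0.11 log2 units (estimate ± SE) over the threshold, with a limma adjusted p of 0.000172. Prdm1 (Blimp1), which represses the somatic programme in primordial germ cells, had signals of 103, 66.7 and 98.4, with replicate 2 the low array. It passed at 0.98 ± 0.20 log2 units (limma adjusted p = 0.02). The call was lost without replicate 1 (limma adjusted p = 0.0938) or without replicate 3 (0.1).

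The RNA-binding proteins of germ cells were mostly above background too. Ddx4, the Vasa helicase used as a marker of germ cells after they reach the gonad, had signals of 138, 152 and 172, or 154 ± 17, at 1.79 ± 0.13 log2 units (limma adjusted p = 0.00114). Dazl, which licenses germ cells for sexual differentiation, had signals of 94.3, 96.8 and 88.0 on the probe set chosen to represent it (1.06 ± 0.11 log2 units, limma adjusted p = 0.00246). The other Dazl probe set read 103, 75.4 and 89.4 and also passed. Every array of both probe sets lay above its threshold. Dnd1, loss of which in mice causes testicular germ cell tumours, had signals of 126, 134 and 162 (1.65 ± 0.15 log2 units, limma adjusted p = 0.00179). Nanos1, a translational repressor, had signals of 55.2, 43.5 and 64.3 and did not pass (0.27 ± 0.18 log2 units, limma adjusted p = 0.28). Its replicate 2 lay below the threshold and the other arrays above it.

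None of the 3 measured PIWI genes was above background, although several of their partners were. Piwil2 (Mili), the PIWI protein of prospermatogonia and spermatogonia, had signals of 29.6, 44.3 and 51.0, with replicate 3 alone over the threshold (-0.13 ± 0.22 log2 units). Piwil1 (Miwi), which acts in spermatids and pachytene spermatocytes, had signals of 39.2, 37.5 and 15.1. Piwil4 (Miwi2), the nuclear PIWI protein of fetal male germ cells, read 19, 14.2 and 2.12. Replicate 3 was the low array for Piwil1 and Piwil4 and the high array for Piwil2. By unadjusted limma p under 0.05, 0 of the 3 passed.

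The Tudor-domain proteins, scaffolds that bind methylated arginines of PIWI proteins, were split. Rnf17 (Tdrd4), a Tudor and RING finger protein of male germ cells, had signals of 260, 230 and 278 and stood 2.52 ± 0.13 log2 units over the threshold (limma adjusted p = 0.000457). Stk31 (Tdrd8), a Tudor and kinase-domain protein, had signals of 77.7, 61.0 and 79.9 (0.70 ± 0.16 log2 units, limma adjusted p = 0.0243). Its call was lost without replicate 1 (limma adjusted p = 0.117) or replicate 3 (0.106). Tdrd7, a Tudor protein that also acts in the lens, read 43.8, 31.4 and 36.6, below the threshold on each array. The remaining Tudor genes lay far lower, with means of 2.2 ± 0.26 for Tdrd1, 3.1 ± 1.35 for Tdrd9, 9.21 ± 7.11 for Tdrkh and 10.3 ± 8.01 for Tdrd5. Tdrd1, the partner of Piwil2 in nuage, read 2.41, 2.27 and 1.91.

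Among the enzymes and other factors that make piRNAs, Pld6 and Mael passed. Pld6, the mitochondrial nuclease or phospholipase also called Zucchini, had signals of 110, 109 and 138 (1.41 ± 0.15 log2 units, limma adjusted p = 0.00293). Mael, a nuage protein needed for transposon silencing, had signals of 97.4, 81.6 and 86.6 (0.99 ± 0.13 log2 units, limma adjusted p = 0.00501). Both genes were over the threshold on all 3 arrays. Mov10l1, the germ cell helicase that starts piRNA processing, had signals of 64.5, 47.6 and 30.3 and lay at the threshold (0.02 ± 0.26 log2 units). Its paralog Mov10, a helicase found in many somatic cells, had signals of 533, 565 and 433 (3.51 ± 0.13 log2 units, limma adjusted p = 0.000192). The paralogs were thus on opposite sides of the call, with Mov10 over the threshold on 3 arrays and Mov10l1 on 2.

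Asz1 and Gpat2, which act at the mitochondrial surface in piRNA production, came close without passing. Asz1 had signals of 64.5, 59.2 and 48.5, over the threshold on each array, with a limma adjusted p of 0.0892. Gpat2 had signals of 43.4, 75.3 and 77.2 (0.50 ± 0.24 log2 units, limma adjusted p = 0.147), and replicate 1 was the low array. The Tex19 pair, mammal-specific genes, was called on both members. Tex19.1, which restrains retrotransposons in germ cells, placenta and embryonic stem cells, had signals of 755, 738 and 741, or 745 ± 9.39 (4.06 ± 0.11 log2 units, limma adjusted p = 0.000122). Tex19.2, its neighbour and paralog, had signals of 62.5, 60.6 and 74.2 (0.56 ± 0.14 log2 units, limma adjusted p = 0.0323). Tex19.2 lost its call whichever replicate was dropped (limma adjusted p of 0.083 to 0.118), and Tex19.1 kept its call each time.

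The 4 of 18 meiosis genes that passed were Stra8, Stag3, Syce1 and Syce2. Stra8, the retinoic acid responsive gene that marks meiotic entry, had signals of 141, 152 and 128 (1.65 ± 0.11 log2 units, limma adjusted p = 0.000813). Stag3, a cohesin subunit of meiotic cells, had signals of 179, 138 and 171 (1.86 ± 0.15 log2 units, limma adjusted p = 0.00142). The other cohesin subunits among the meiosis members, Rec8 and Smc1b, did not pass. Rec8 read 46.8, 42.0 and 37.1, on the threshold (-0.09 ± 0.12 log2 units), and Smc1b read 2.18, 3.54 and 2.88.

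The synaptonemal complex was uneven. Syce2, a central element protein, had signals of 1504, 1529 and 1717, or 1583 ± 116, which lay 5.15 ± 0.12 log2 units over the threshold (limma adjusted p = 0.000113). Syce1, another central element protein, had signals of 113, 111 and 109 (1.32 ± 0.11 log2 units, limma adjusted p = 0.00139). Each array of both genes was above its threshold. The central element partner Tex12 did not pass, at 21.8, 11.5 and 29.1. Sycp3, the axis protein most used as a meiotic marker, read 47.5, 46.4 and 45.3. It exceeded the threshold on all 3 arrays, by 0.06 ± 0.11 log2 units, and did not pass (limma adjusted p = 0.707). The transverse filament gene Sycp1 had a mean of 13.7 ± 4.70 and the axis gene Sycp2 of 17.9 ± 4.02. Hormad1, an axis protein removed upon synapsis, had a mean of 18.4 ± 5.11.

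Of the members that make or repair meiotic breaks or act in crossover formation, the 7 named here were not above background. Spo11, the enzyme that cuts the DNA, read 10.5, 3.70 and 13.3. Dmc1, the meiotic recombinase, read 28.1, 39.0 and 32.4, below the threshold on each array (-0.44 ± 0.14 log2 units). Mei1, needed for break formation, had a mean of 21.6 ± 7.71, and the crossover factors Msh4 and Msh5 had means of 11.3 ± 7.67 and 14.1 ± 5.25. Tex15, which acts in meiotic repair and in piRNA-directed methylation, read 38.3, 23.8 and 27.5. The X-linked crossover gene Tex11 had a mean of 20.7 ± 13.6. In these 7 genes no array exceeded its threshold, and none had an unadjusted limma p under 0.05.

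Of the genes of later germ cell differentiation and gametes, Sohlh2, Tex14 and Zp3 passed. Sohlh2, a helix-loop-helix factor of spermatogonia and early oocytes, had signals of 118, 84.3 and 75.7 (1.03 ± 0.18 log2 units, limma adjusted p = 0.0126). Its call was lost without replicate 2 (limma adjusted p = 0.0529). Tex14, which keeps the bridges between dividing germ cells open, had signals of 109, 87.4 and 78.9 (1.03 ± 0.15 log2 units, limma adjusted p = 0.0071). Replicate 1 was the high array for both genes, and each array was over its threshold. Taf7l, a germ cell variant of a general transcription factor subunit, read 46.4, 56.5 and 55.4, over the threshold on each array without passing (limma adjusted p = 0.184).

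The zona pellucida genes, which encode the coat of the egg, differed in their calls. Zp3, which encodes a main structural protein of the coat, had signals of 79.3, 98.6 and 82.9 (0.96 ± 0.12 log2 units, limma adjusted p = 0.00484). Zp1 read 46.7, 27.9 and 4.03, and Zp2 read 25.9, 5.91 and 13.7. Their arrays were far apart, with Zp1 over the threshold on replicate 1 alone. Nobox, an oocyte homeobox factor, read 34.1, 2.56 and 11.8. The spermatogenic genes Slc25a31, a mitochondrial carrier for ADP and ATP, and Tex101, a surface protein of male germ cells, did not pass. Slc25a31 read 29.7, 33.2 and 24.3, below the threshold on each array, and Tex101 had a mean of 3.9 ± 1.4.

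Over all groups, 32 of the 51 genes were not called. Of these, 13 lay within 1 log2 unit of the threshold, and 19 lay further below it, with mean signals from 2.2 to 26.2. Of those 19, only Zp1 exceeded the threshold on any array. With each replicate left out in turn, 15 of the 19 called genes kept their call throughout. Prdm1, Stk31, Tex19.2 and Sohlh2 were the exceptions. Among all named genes the share called also fell with a replicate left out, from 51.1% to between 48.2% and 48.6%.

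Several probe sets were present for 10 of the genes, and no call changed when the probe set was chosen by suffix or the median over probe sets was taken.

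**Figure D3:**
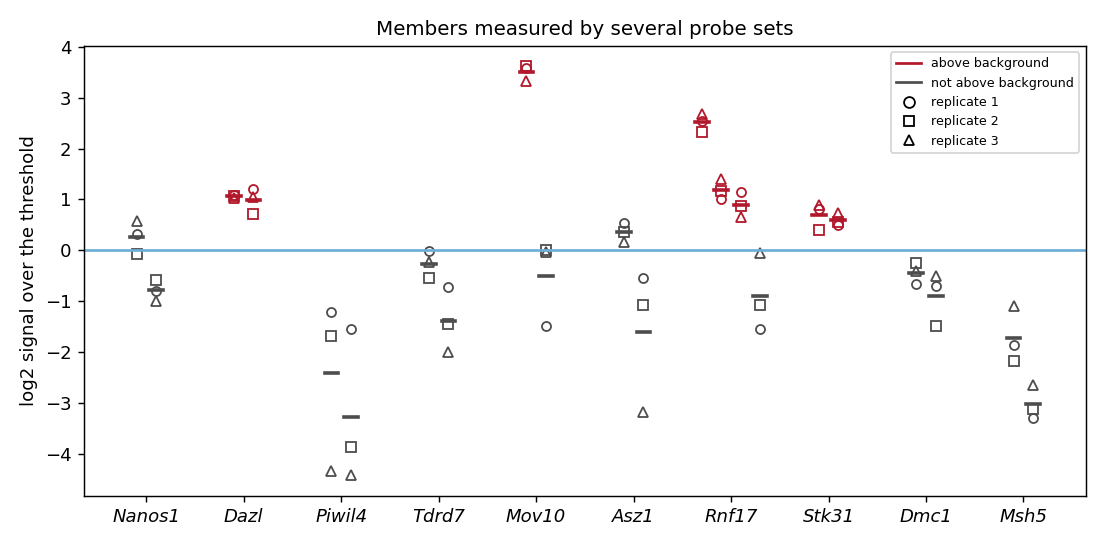
log2 signal over the threshold on each array for the 10 members with several probe sets, ordered within a gene by mean signal. Symbols are replicates, bars are means over 3 arrays, red marks a probe set above background. Mov10 and Rnf17 each have a grey probe set beside red ones, and the probe sets of the other 8 genes share 1 colour.

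For 8 of the 10 genes all probe sets gave the same call. Of the 4 probe sets for Rnf17, 3 passed, with means of 256, 102 and 83.5, and the fourth did not, at 15.1, 21.9 and 41.8. Of the pair for Mov10, the other probe set read 15.7, 46.5 and 42.4 and did not pass. The call of both genes was the same when the median over probe sets was tested instead. What the discordant probe sets hybridise to was not tested.

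Other genes of the same pathways were taken from lists that hold none of the 51. Over these 4 lists, 32 of 64 measured genes were above background (50%), a share near the 51.1% of all named genes. The separate lists ranged from 8.7% to 91.7%. Primordial germ cell genes passed in 11 of 12 cases (91.7%). Tfap2c, a factor that acts downstream of Prdm1, had a mean of 136 ± 17.7, Dppa3 (Stella) of 98 ± 10.8, the receptor Kit of 219 ± 6.46 and the surface protein Ifitm3 (Fragilis) of 1756 ± 21.4. Wt1, a gonadal factor, did not pass (18.3 ± 14.3). Several of these genes are also expressed in pluripotent stem cells.

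Beside 38.9% of the piRNA pathway members and 51.1% of all named genes, 9 of 13 other piRNA pathway genes passed (69.2%). They included Ddx39b, an RNA export helicase found in most cells (6415 ± 526), the Tudor gene Tdrd12 (330 ± 11.8), Morc1, a gene for transposon silencing in male germ cells (775 ± 151), and the piRNA trimming nuclease gene Pnldc1 (135 ± 14.5). Henmt1, the piRNA methyltransferase (15.6 ± 15), Gtsf1, a partner of PIWI proteins (46.7 ± 4.13), Exd1 (38.2 ± 15.9) and Kif17 (39.7 ± 9.67) did not pass. Of the other meiosis genes 10 of 16 passed (62.5%), beside 22.2% of the meiosis members. Mei4 (232 ± 30.5), Mnd1 (209 ± 16.9), Psmc3ip (552 ± 36.0) and Mlh3 (232 ± 23.6) were among the 10 that passed. Hormad2 (3.54 ± 0.334), Rec114 (30.0 ± 18.4), Meiob (7.23 ± 6.09) and Syce3 (17.2 ± 11.7) did not. Of the other gamete genes only 2 of 23 passed (8.7%), beside 33.3% of the gamete members. The 2 were Zar1, a maternal-effect gene of the oocyte (111 ± 14.7), and Id4 (239 ± 14.9). Id4 is a marker of spermatogonial stem cells that is also known from the nervous system. Sohlh1 (6.52 ± 4.99), Figla (32.9 ± 10.7), Lhx8 (6.40 ± 6.44) and Gdf9 (49.9 ± 19.3) did not pass.

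Genes known to repress the germ cell programme in embryonic stem and somatic cells were above background in 17 of 18 measured cases (94.4%). Their median was 4.61 log2 units. Beside them, 51.1% of all named genes were above background, with a median of 0.72. Mga and Max, which form a dimer that binds E-box sequences within a variant polycomb complex, had means of 463 ± 66.0 and 611 ± 164. E2f6, a repressor of the E2F family in the same complex, had a mean of 599 ± 63.8 and L3mbtl2 of 896 ± 57.9. Cbx3, a heterochromatin protein, was the exception at 46.8 ± 16.5. These are RNA levels in a single group, and whether the proteins act on the genes described here was not tested.

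Promoter sequences (RefSeq, GRCm38.p6, 250 bases before to 50 after each annotated start) were found for 44 of the 55 genes. They were searched on both strands for the E-box CACGTG, which reads the same on both strands, and for TCCCGC, the core of the sequence bound by E2f6. Matches of the 2 sequences can share no more than 1 base at an edge. An E-box was found in 7 of 16 called genes (43.8%), in 10 of 26 genes that were not called (38.5%), and in 8.09% of all 27025 genes of the promoter table. TCCCGC was found in 7 of 16 called genes (43.8%), in 11 of 26 that were not called (42.3%), and in 22% of all genes. Both sequences occurred in 10 of the 44 genes (22.7%) and in 2.65% of all genes. Among protein-coding genes alone the shares were 8.91% for the E-box, 28.4% for TCCCGC and 3.57% for both. Each of the 2 sequences contains a CG, and promoters differed in their count of CG. Its median was 18.5 for the 44 genes, 8 for all genes and 15 for protein-coding genes. The part of CG content in the motif shares was not tested. By group, the E-box was present in 1 of 6 primordial germ cell genes, 7 of 16 piRNA pathway genes, 6 of 15 meiosis genes and 3 of 7 gamete genes. TCCCGC was present in 1 of 6, 4 of 16, 10 of 15 (66.7%) and 3 of 7 genes of these groups, in the same order. Those 6 primordial germ cell genes include Nanos2 and Nanos3, which had no probe set. They leave out Prdm14 and Dnd1, whose promoters were not found. A match is only a run of letters, and no binding was measured.

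**Figure D4:**
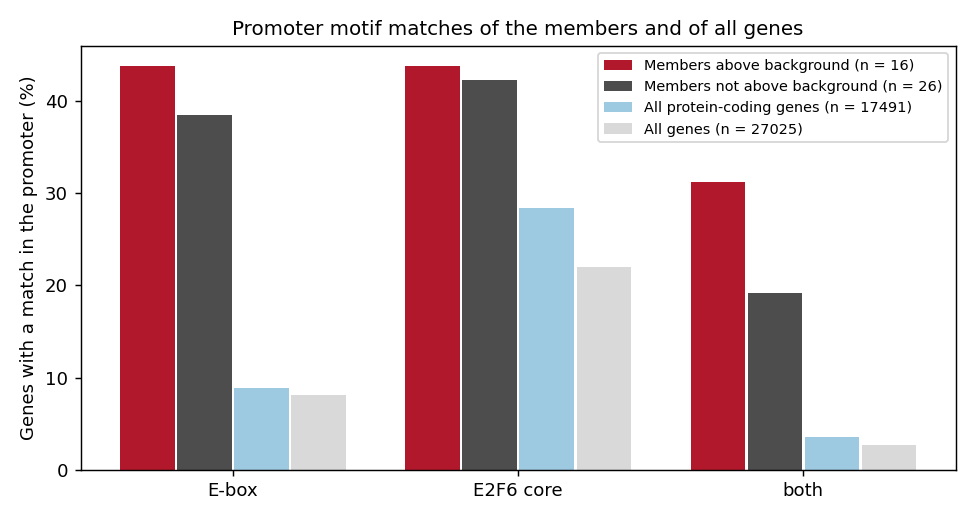
Share of genes (bars, in percent) whose promoter window holds an E-box, the core sequence of E2f6, or both. From left to right in each cluster the bars are members above background (n = 16), members not above background (n = 26), all protein-coding genes (n = 17491) and all genes (n = 27025). For the E-box both member bars, 43.8% and 38.5%, stand above the 8.91% and 8.09% of the other bars.

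The stretches below show how the E-box sits in these promoters. They belong to the first 3 called genes (Ddx4, Mael and Pld6) and the first 3 genes not called (Piwil1, Tdrd1 and Tdrd9), in the order of the gene lists, that hold one. Each has 120 bases from the region upstream of the start, written 5′ to 3′ on the strand of the gene. The stretches of Ddx4, Pld6 and Tdrd1 run from -120 to -1 relative to the start. Mael covers -250 to -131, Piwil1 -223 to -104 and Tdrd9 -187 to -68. Capitals mark CACGTG and, in Mael, also TCCCGC. The positions in GRCm38.p6 are chr13:112652311-112652430 (minus strand) for Ddx4, chr1:166238875-166238994 (minus) for Mael and chr11:59787658-59787777 (minus) for Pld6. They are chr5:128736023-128736142 (plus) for Piwil1, chr19:56826089-56826208 (plus) for Tdrd1 and chr12:111971372-111971491 (plus) for Tdrd9.
Ddx4: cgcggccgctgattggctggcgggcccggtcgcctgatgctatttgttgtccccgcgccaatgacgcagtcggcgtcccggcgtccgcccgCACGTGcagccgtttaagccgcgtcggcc
Mael: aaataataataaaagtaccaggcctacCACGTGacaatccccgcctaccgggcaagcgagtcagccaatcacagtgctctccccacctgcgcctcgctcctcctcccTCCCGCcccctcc
Pld6: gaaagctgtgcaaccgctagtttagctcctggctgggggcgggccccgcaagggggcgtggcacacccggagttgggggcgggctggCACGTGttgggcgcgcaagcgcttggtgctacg
Piwil1: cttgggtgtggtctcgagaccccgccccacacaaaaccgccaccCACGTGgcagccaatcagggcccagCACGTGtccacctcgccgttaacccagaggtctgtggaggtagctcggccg
Tdrd1: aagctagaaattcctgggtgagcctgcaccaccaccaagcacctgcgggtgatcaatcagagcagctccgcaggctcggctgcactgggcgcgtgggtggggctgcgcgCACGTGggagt
Tdrd9: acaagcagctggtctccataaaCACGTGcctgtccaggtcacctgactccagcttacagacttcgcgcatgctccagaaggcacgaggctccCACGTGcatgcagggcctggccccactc

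In the stretches of Piwil1 and Tdrd9 the E-box occurs 2 times, and in those of Ddx4, Mael, Pld6 and Tdrd1 once. The genes with an E-box thus included Ddx4, at 154 ± 17, and Tdrd1, at 2.2 ± 0.26, on either side of the threshold.

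The label was checked against markers. All 10 measured embryonal carcinoma markers, among them Pou5f1 (6809 ± 279) and Sox2 (4794 ± 208), were above background, while 0 of 8 endoderm and 0 of 8 fibroblast markers passed, with 2 and 0 of them at an unadjusted limma p under 0.05 and as many over the threshold on all 3 arrays. Since germ cells live beside somatic cells of the gonad, markers of testis and ovary somatic cells were also read. Of 10 measured, Amhr2 (148 ± 12.9) and Foxl2 (113 ± 11.5) passed (20%, beside 51.1% of all named genes). Amhr2 lay 1.73 ± 0.13 and Foxl2 1.34 ± 0.12 log2 units over the threshold. Of the 19 called members, 9 also lay between 1 and 2 units. Amh (4.08 ± 0.289), Cyp17a1 (5.97 ± 1.25), Hsd3b1 (10.9 ± 8.54), Fshr (17.5 ± 16.5) and Sox9 (23.4 ± 15.8) did not pass. Star (60.1 ± 25.1), Gata4 (52.8 ± 17.7) and Inha (46.0 ± 7.96) did not pass either, but each exceeded the threshold on 2 arrays. The summed signal of that list lay between 469.6 and 488.5 on the 3 arrays, and none of its markers was listed at 0. Its part in the germ cell values was not tested. In bulk RNA, a gene expressed in few cells and a gene expressed weakly in all cells cannot be told apart.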

How the data were processed

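The authors deposited linear intensities for 3 arrays of 45101 probe sets each, 64 of them controls. The authors used GCOS 1.4, per the submitters' processing notes. Neither the signal algorithm nor the detection calls were given in the sources used. The deposited intensities had been scaled, with a mean of 250.0 on each array after trimming 2% at each end. No further normalization was applied, and scaling hides any change in total RNA. Median signals were 37.8, 37.8 and 36.0, and the number of arrays limits the precision.

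Symbols came from a platform annotation: 34945 probe sets had 1 symbol, 932 several and 9160 none. Calls used limma 3.58.1 in R 4.3.3 (intercept only, eBayes), as described with the results, and the procedure was tested on simulated data. The members and lists were chosen with earlier results of these data known. Every member was named. Per-array signals were given for called members, for members within 1 log2 unit of the threshold and for probe sets that differed from the call of their gene. Those of some other members were added after their values were seen. From other lists, up to 4 genes above background and up to 4 not were taken in written order, and the cell type markers given by name were picked after their values were seen. The printed promoters were chosen after the matches were seen. Protein sequences were not used. Alternatives, 14 in number, changed the threshold, probe sets, scaling, test or replicates.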

Additional observations from a re-analysis of the deposited data

How the results depend on the processing

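Over the 14 alternatives the count of genes above background ranged from 14 (99th percentile) to 27 (bacterial controls, whose thresholds of 19.8 to 27.5 are far lower), against 19 of 51. The share of all named genes called moved too in these settings, to 46.3% and 59.3%, against 51.1%. That share was lowest, 43.7%, with the median of a gene's probe sets, where no call of a member changed. The piRNA pathway count moved most, to 4 at the 99th percentile and 11 with bacterial controls, against 7. With bacterial controls Piwil2 and Rec8, whose means lay below the 95th percentile threshold, were called at 0.84 and 0.88 log2 units (limma adjusted p = 0.0392 and 0.0214), and Nanos1, Mov10l1, Asz1, Gpat2, Sycp3 and Taf7l also passed. At the 99th percentile Prdm1, Mael, Stk31, Tex19.2 and Zp3 lost their calls. Leaving out 1 replicate gave 16 to 17 genes, beside 48.2% to 48.6% of all named genes. Asz1 passed in 4 alternatives and Taf7l in 3. No call of a member changed with olfactory receptors only, another probe set rule, quantile normalization or a trend in the test. In all 14 alternatives 13 genes kept their call, and 24 were never called. The meiosis count was 4 to 6, the gamete count 2 to 4, the primordial germ cell count 4 to 6. Counting Ddx4 and Tex15 with the piRNA group, without Mov10, gave 7 of 19. No paired analysis was possible because the samples form 1 group.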
